A study of Mus musculus with 12 samples.

Results

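The AP-1 transcription factor genes of the FOS family (Fos, Fosb, Fosl1 and Fosl2) and of the JUN family (Jun, Junb and Jund), together with the zinc finger factor gene Egr1, were followed in B16F10 cells, a mouse melanoma cell line. The genes were taken by symbol from the 12 deposited count tables, and all 8 were present among 24421 genes. B16F10 cells were given vehicle, DAC, SFN or both, and polyA-selected RNA was sequenced from 3 independent repeats of each of the 4 groups. Control cells received dimethyl sulfoxide alone. DAC (5-aza-2'-deoxycytidine, a nucleoside analog that inhibits DNA methylation) was given at 25 nM for 72 h. SFN (sulforaphane, an isothiocyanate from cruciferous vegetables) was given for the last 48 h, and the combination treatment (DAC+SFN) joined both schedules. The dose of SFN is 5 µM for the combination treatment in the labels and 5 nM for the single treatment, while the methods of the study give 5 µM for both, so by the labels these groups differ in SFN dose as well as in DAC. All libraries came from 1 cell line, and the repeats are cultures of it.

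AP-1 is a dimer of leucine zipper proteins. JUN proteins pair with each other or with a FOS protein, FOS proteins need a JUN partner to bind DNA, and the pair recognises a short palindrome in promoters and enhancers. Fos, Fosb, Jun, Junb and Egr1 are immediate early genes, which are switched on within minutes of growth factor, serum or stress signals through the MAP kinases and have short-lived transcripts, while Jund is usually present at a steadier level. In melanoma, MAP kinase signalling is commonly active, and FOSL1 and FOSL2 are among the factors that accumulate with sustained ERK activity.

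The promoters of Fos, Fosl2 and Jun are shown since these were the 3 genes that rose with the combination treatment. Each line gives the 150 bases before the gene's start in RefSeq (GRCm38.p6), 5′ to 3′ on the gene's own strand, with capitals for a GC box (GGGCGG or CCGCCC) and, in Jun, for the octamer TGACATCA. Fos lies at chr12:85473740-85473889 on the plus strand, Fosl2 at chr5:32136322-32136471 on the plus strand, and Jun at chr4:95052223-95052372 on the minus strand.
Fos: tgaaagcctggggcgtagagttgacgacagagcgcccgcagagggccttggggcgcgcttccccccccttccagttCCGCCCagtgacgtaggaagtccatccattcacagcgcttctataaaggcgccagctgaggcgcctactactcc
Fosl2: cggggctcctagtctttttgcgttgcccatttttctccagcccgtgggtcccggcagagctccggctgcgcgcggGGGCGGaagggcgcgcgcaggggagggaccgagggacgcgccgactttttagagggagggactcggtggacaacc
Jun: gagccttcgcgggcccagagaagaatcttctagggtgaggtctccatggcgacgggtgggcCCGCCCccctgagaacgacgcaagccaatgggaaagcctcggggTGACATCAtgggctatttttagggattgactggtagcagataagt

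Windows from 250 bases before to 50 bases after the start were searched on both strands for 6 motifs, and 6 of the genes had a window in the RefSeq table used here. TGACATCA, a variant AP-1 octamer known from the Jun promoter, began 45 bases before the start of Jun and was present in 3.62% of 32851 windows. The GC box, the site of SP1-type factors, was present in 4 of the 6 windows (Fos, Fosb, Fosl2 and Jun) and in 35.7% of all windows, at 74, 75 and 89 bases before the starts of Fos, Fosl2 and Jun. None of the 6 windows had the AP-1 heptamer (TGACTCA or TGAGTCA, 5.20% of all windows), the cAMP response octamer TGACGTCA (1.79%), the CArG box of serum response factor (1.63%) or the core of the antioxidant response element (TGACNNNGC or TGAGNNNGC, 27.8%), which can overlap the AP-1 heptamer. The RefSeq starts differ from the gene ranges given here from GENCODE for Jund, whose window (chromosome 8 from 70697489 to 70697788) ends before that range, and for Fosl2, whose window begins inside it. These matches are of letters in a short window and do not show binding. An absence covers only these letter patterns in that window, so variant sites and sites further away would be missed.

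Between 15880957 and 27291436 reads per library were counted on genes. Expression values are given in CPM, counts per 1000000 counts of the library after TMM scaling, as mean ± SD of n = 3 replicates unless each library is given, and values for replicates 1, 2 and 3 always stand in that order. Genes with at least 1 CPM (15.9 to 27.3 counts) in at least 3 libraries entered the test, and 6 of the 8 genes were among these 11638. The test was edgeR's quasi-likelihood F-test with the replicate number as a block, and a gene is said to rise or fall where its p-value, adjusted by Benjamini-Hochberg over all genes, was under 0.05, at any fold change. All 7 melanocyte markers examined were expressed in every library, with Tyrp1, a pigment enzyme, between 9688 and 13400 CPM. The markers of leukocytes (Ptprc, Cd3e, Itgam) and of keratinocytes (Krt5, Krt14, Epcam) reached no more than 3 counts per library, and of the endothelial markers Cdh5 was at 0 in all 12, Kdr had at most 5 counts and Pecam1 at most 11. The summed endothelial markers were 0.0514 to 0.184 CPM in control and 0.233 to 0.670 CPM with the combination treatment, and their part in the results was not tested. Of the fibroblast markers, Pdgfra was between 1.22 and 2.99 CPM and Dcn and Lum had at most 3 counts. The summed fibroblast markers were 2.28 to 2.99 CPM in control and 1.23 to 1.82 CPM with the combination treatment.

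**Figure D1:**
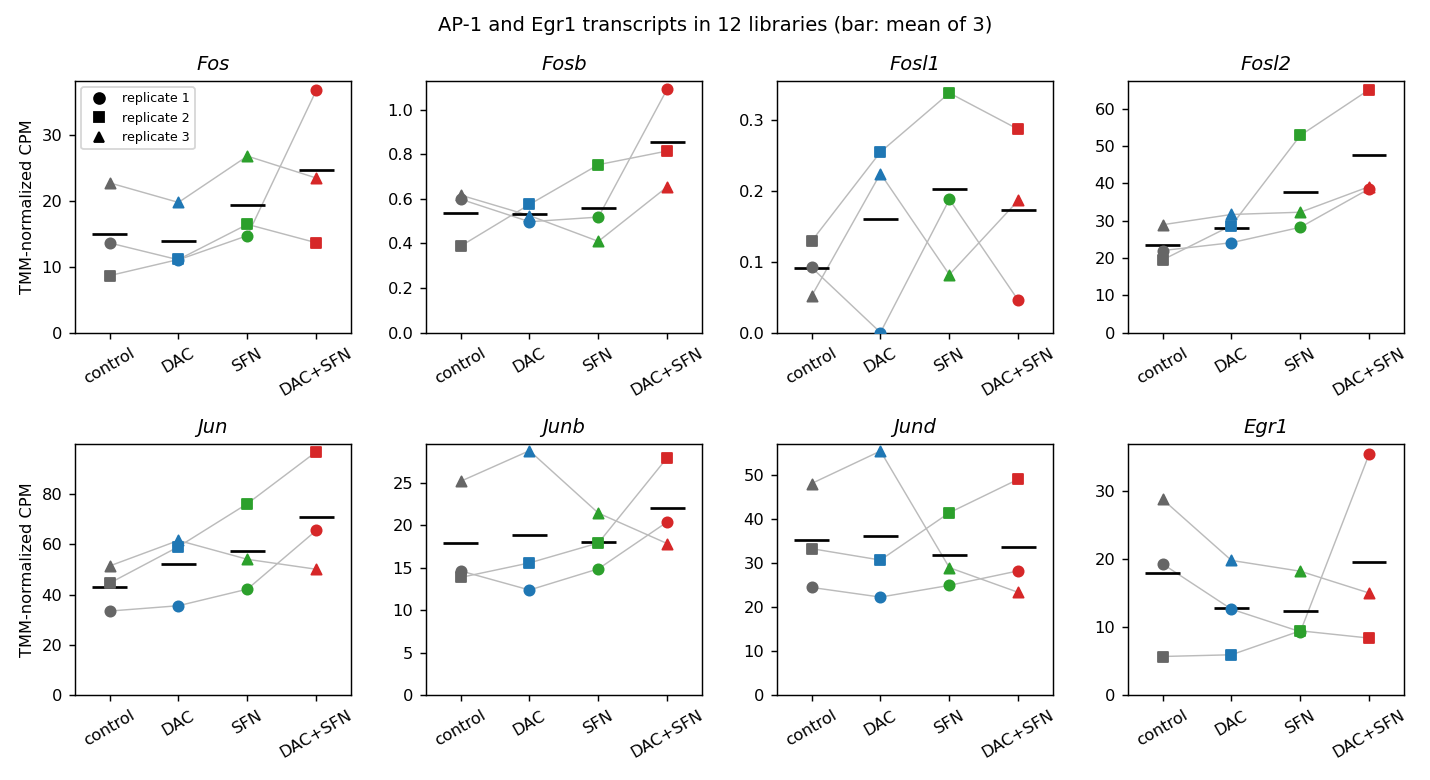
TMM-normalized CPM (y axis, linear from 0, one scale per gene) of the 8 genes in the 4 groups (x axis). Circles, squares and triangles are replicates 1, 2 and 3, joined across groups by thin lines, and bars are means of 3. All 3 DAC+SFN libraries lie above all 3 control libraries for Fosl2, and Egr1 is lowest in replicate 2 in 3 of the 4 groups.

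The 8 genes covered a wide range of transcript level. Per length of transcript (TPM, which is scaled to the same total in each library, mean over 12 libraries), Jund stood at 74.4 and Jun at 63.6, followed by Junb at 30.5, Fos at 28.4, Fosl2 at 12.9 and Egr1 at 12.8, while Fosb (0.362) and Fosl1 (0.279) were close to the limit of detection. In control, Jund was at 77.3 ± 27.0 TPM, Jun at 49.4 ± 10.6, Junb at 28.5 ± 10.6, Fos at 23.5 ± 11.6, Egr1 at 14.7 ± 9.72 and Fosl2 at 8.87 ± 2.02. Neighbours in this order overlapped in their ranges over the 3 control libraries, from Jund down to Fosl2.

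JUN family transcripts made up most of the AP-1 transcripts. Of the summed per-length level of the 7 AP-1 genes, the 3 JUN genes held 82.7 ± 4.13% in control and 83.2 ± 2.41% with DAC, against 78.3 ± 3.52% with SFN and 75.8 ± 7.97% when both were given. The share of Jund was 40.8 ± 3.47% in control (36.9 to 43.6%) and 29.1 ± 4.89% with the combination treatment (25.5 to 34.7%), and these ranges did not overlap. The share of Jun was 26.8 ± 3.55% in control and 32.4 ± 2.98% with the combination treatment, and that of Fosl2 was 4.82 ± 0.774% and 7.26 ± 1.08%. The share of Fos with the combination treatment ranged from 6.86% in replicate 2 to 23.7% in replicate 1, which covered all its control values. Shares were not tested, and a share can differ because the other genes of the sum differ. The summed level of the 7 genes was 188 ± 58.5 TPM in control and 248 ± 51.2 TPM with the combination treatment, with overlapping ranges. In bulk samples, fewer cells that express a gene and less RNA per cell cannot be told apart.

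**Figure D2:**
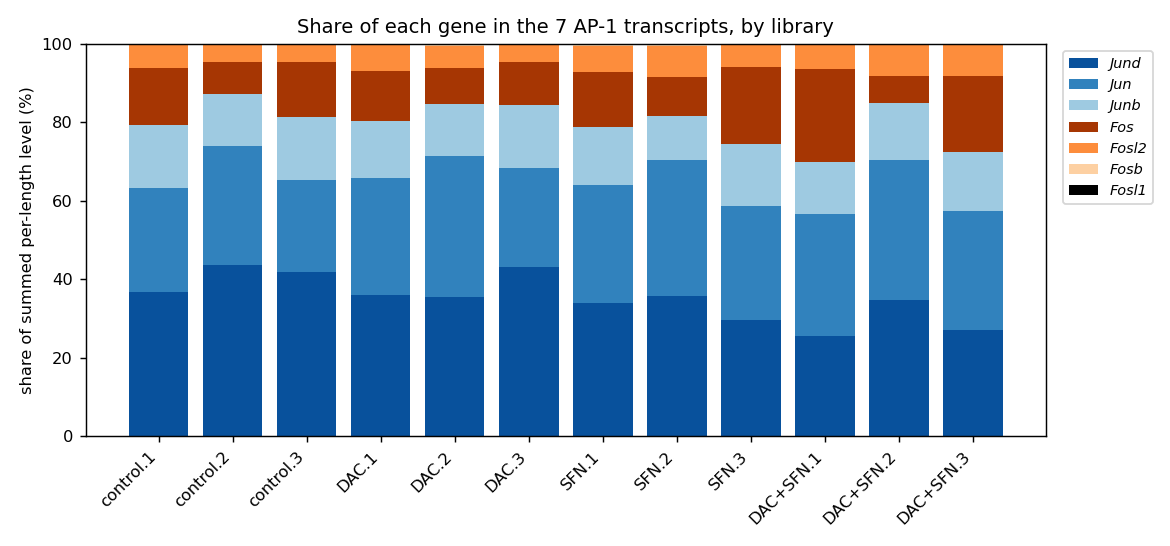
Share (y axis, percent) of each of the 7 AP-1 genes in their summed per-length level, with 1 stacked bar for each of the 12 libraries (x axis, group and replicate). Blue parts are JUN genes and orange and brown parts are FOS genes; the lowest part, Jund, is between 36.9% and 43.6% in control and between 25.5% and 34.7% with DAC+SFN.

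Among the FOS genes, Fosl2 (Entrez Gene 14284, chromosome 5 from 32135801 to 32157842 in mm10), which encodes FRA2, a FOS protein without the strong activation domain of FOS, had the largest log2 fold change of the 6 tested genes with the combination treatment compared to control. In replicates 1, 2 and 3, Fosl2 was at 21.9, 19.4 and 28.9 CPM in control and at 24.1, 28.6 and 31.6 CPM with DAC. It was at 28.2, 52.8 and 32.2 CPM with SFN and at 38.5, 65.1 and 39.1 CPM with the combination treatment. All 3 libraries of the combination treatment lay above all control and all DAC libraries, while those with SFN overlapped control, and replicate 2 was the highest under both SFN treatments. Compared to control, Fosl2 rose 1.98-fold with the combination treatment (log2 fold change 0.99, SE 0.19, adjusted p = 0.00134). With SFN single treatment it rose as well (log2 fold change 0.65, SE 0.19, adjusted p = 0.0336), and in the combination treatment compared to DAC by 0.73 (SE 0.19, adjusted p = 0.0169). With DAC the log2 fold change was 0.26 (SE 0.19, adjusted p = 0.698), and in the combination treatment compared to SFN it was 0.34 (95% interval -0.05 to 0.73, adjusted p = 0.352). The rise with the combination treatment compared to control held in all 6 fits that left out 1 control or DAC+SFN library (log2 fold change 0.69 to 1.18) and without the replicate block (adjusted p = 0.0307). The rise with SFN held in 2 of 6 such fits. It was lost without control replicate 1 or 2 or SFN replicate 1 or 2, and without replicate 2 of control or of SFN its log2 fold change was 0.35 or 0.42. It was also lost in DESeq2 (adjusted p = 0.107) and without the block (adjusted p = 0.242). The rise compared to DAC held in 2 of 6 fits with 1 library left out and was lost without DAC or DAC+SFN replicate 1 or 2 (log2 fold change 0.53 to 0.74 in these fits) and without the block (adjusted p = 0.174).

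Fos (Entrez Gene 14281, chromosome 12 from 85473890 to 85477273), the founding FOS gene and a standard marker of recent stimulation, was at 13.6, 8.65 and 22.8 CPM in control and at 11.1, 11.1 and 19.8 CPM with DAC. It was at 14.7, 16.4 and 26.8 CPM with SFN and at 36.8, 13.6 and 23.5 CPM with the combination treatment. The highest value came from DAC+SFN replicate 1, and the groups overlapped. Fos rose with the combination treatment by a log2 fold change of 0.77 compared to control (SE 0.25, adjusted p = 0.0305) and of 0.84 compared to DAC (SE 0.25, adjusted p = 0.0366). The log2 differences from control in replicates 1, 2 and 3 were 1.43, 0.65 and 0.05. Without DAC+SFN replicate 1 the log2 fold change compared to control was 0.22 (adjusted p = 0.322) and compared to DAC 0.30 (adjusted p = 0.259), so the size of the rise rested on 1 library. The rise over control was also lost without control replicate 1 (adjusted p = 0.127) or 2 (adjusted p = 0.123), in DESeq2 (adjusted p = 0.0881) and without the block (adjusted p = 0.263). The rise over DAC was also lost without DAC replicate 1 or 2 (adjusted p = 0.215 and 0.0617), in DESeq2 (0.103), with only DAC and DAC+SFN libraries in the fit (0.0586) and without the block (0.338). With SFN single treatment, Fos had a log2 fold change of 0.43 (95% interval -0.11 to 0.96, adjusted p = 0.283), and with DAC of -0.07 (-0.63 to 0.48, adjusted p = 0.952).

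Fosb and Fosl1 did not pass the filter on low counts and were not tested. Fosb (Entrez Gene 14282, chromosome 7 from 19302696 to 19310051), the source of the long-lived DeltaFosB isoform, had 9 to 13 counts per library in control and 14 to 24 with the combination treatment. Its mean was 0.534 ± 0.127 CPM for control and 0.532 ± 0.0392 for DAC, 0.560 ± 0.176 for SFN and 0.853 ± 0.222 for the combination treatment. The DAC+SFN libraries (0.654 to 1.09 CPM) lay above the control libraries (0.387 to 0.616 CPM), at counts where the spread from counting alone is large. Fosl1 (Entrez Gene 14283, chromosome 19 from 5447547 to 5455946), which encodes FRA1, had 0 to 9 counts in any library and no difference between groups was detectable at this depth. Its gene overlaps Ccdc85b on the other strand, which had at most 306 counts.

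Among the JUN genes, Jun rose and Junb and Jund were not called in any comparison. Jun (Entrez Gene 16476, chromosome 4 from 95049034 to 95052222), the founding JUN gene and a main partner of FOS, was at 33.4, 44.5 and 51.4 CPM in control and at 35.6, 59.0 and 61.5 CPM with DAC. It was at 42.2, 76.1 and 54.0 CPM with SFN and at 65.5, 96.8 and 50.1 CPM with the combination treatment. Replicates 1 and 2 were higher with the combination treatment than in all control libraries, while replicate 3 was just under its own control. Jun rose in the combination treatment relative to control (log2 fold change 0.71, SE 0.17, adjusted p = 0.00638), with log2 differences of 0.97, 1.12 and -0.04 in replicates 1, 2 and 3. The rise was lost without control replicate 2 (adjusted p = 0.0571), without DAC+SFN replicate 1 (adjusted p = 0.0525) and without the block (adjusted p = 0.121). With SFN single treatment the log2 fold change was 0.39 (SE 0.17, adjusted p = 0.150), and in the combination treatment compared to DAC it was 0.45 (SE 0.17, adjusted p = 0.0877).

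Junb (Entrez Gene 16477, chromosome 8 from 84974484 to 84978718), which can restrain the activity of JUN on shared targets, was at 14.6, 13.9 and 25.2 CPM in control and at 20.4, 28.0 and 17.8 CPM with the combination treatment. It was at 12.4, 15.6 and 28.8 CPM with DAC and at 14.9, 17.9 and 21.4 CPM with SFN. Replicates 1 and 2 were higher with the combination treatment than in control and replicate 3 was lower. The log2 fold change from control was 0.36 (95% interval -0.10 to 0.83, adjusted p = 0.223), and without DAC+SFN replicate 3 it was 0.72 (adjusted p = 0.00101). Junb overlaps Prdx2 on the opposite strand, which had up to 7447 counts in a library, and whether the strand was used in counting is not given in the sources used here, so the count of Junb is uncertain.

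Jund (Entrez Gene 16478, chromosome 8 from 70698949 to 70700616), an intronless gene whose product often opposes proliferation, was at 24.4, 33.2 and 48.0 CPM in control and at 28.2, 48.9 and 23.3 CPM with the combination treatment. It was at 22.2, 30.6 and 55.3 CPM with DAC and at 24.9, 41.4 and 28.9 CPM with SFN. The 3 repeats went different ways, with log2 differences between combination treatment and control of 0.21, 0.56 and -1.04. The log2 fold change was -0.05 (95% interval -0.60 to 0.50, adjusted p = 0.915). Jun and Jund each have an antisense gene (Junos and Gm11175) that was not counted in the files used here.

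**Figure D3:**
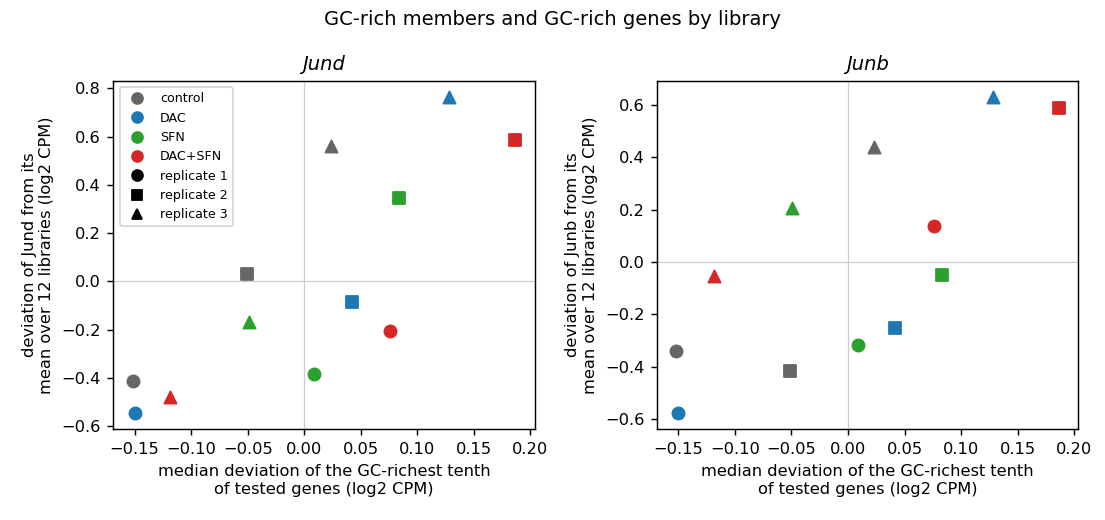
Deviation of Jund (left) and Junb (right) from its mean over 12 libraries (y axis, log2 CPM) against the median deviation of the 1161 most GC-rich tested genes in the same library (x axis, log2 CPM). Colours are groups and shapes are replicates; DAC+SFN replicate 2 and DAC replicate 3 lie highest on both axes for both genes, and DAC replicate 1 lies lowest for both genes.

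Jund and Junb are among the most GC-rich transcripts. Jund had 67.1% GC, above 99.9% of the tested genes, and Junb 62.6%, above 99.0%. The median deviation of the 1161 most GC-rich genes (at least 57.8% GC) from its mean over all libraries ran from -0.15 in control replicate 1 and DAC replicate 1 to 0.19 in DAC+SFN replicate 2 on the log2 scale. Jund deviated by -0.41 and -0.55 in those 2 replicate 1 libraries and by 0.59 in DAC+SFN replicate 2. In DAC+SFN replicate 3 these genes were at -0.12 and Jund at -0.48, and in control replicate 3 at 0.02 and 0.56. Jund and these genes had opposite signs in control replicate 2 (Jund 0.03, these genes -0.05) and DAC replicate 2 (-0.09, 0.04). The same held in SFN replicate 1 (-0.38, 0.01) and DAC+SFN replicate 1 (-0.21, 0.08). Elsewhere the signs were the same. With a GC correction added to the same fit with the block, the log2 fold change with the combination treatment compared to control was 0.23 in place of 0.36 for Junb (adjusted p = 0.249) and -0.22 in place of -0.05 for Jund (adjusted p = 0.287). In that fit, no call of Fos, Fosl2 or Jun in the combination treatment compared to control was lost, and Jun also passed the threshold in the combination treatment compared to DAC (log2 fold change 0.42, adjusted p = 0.0437).

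Egr1 (Entrez Gene 13653, chromosome 18 from 34859823 to 34864984), the early growth response factor that is induced beside Fos by serum and ERK signals, differed more between repeats than between treatments. It was at 19.3, 5.68 and 28.8 CPM in control and at 12.6, 5.93 and 19.8 CPM with DAC. It was at 9.32, 9.45 and 18.2 CPM with SFN and at 35.4, 8.38 and 15.0 CPM with the combination treatment. All groups overlapped, and replicate 2 was lowest in 3 of the 4. Compared to control, the log2 fold change was -0.42 with DAC (95% interval -1.15 to 0.32, adjusted p = 0.730), -0.36 with SFN (-1.09 to 0.37, adjusted p = 0.532) and 0.22 with the combination treatment (-0.50 to 0.93, adjusted p = 0.657). The interaction, the change with both treatments beyond the sum of the single treatments on the log2 scale, was 0.99 (SE 0.49, adjusted p = 0.871), the largest of the 6 genes. DAC+SFN replicate 1, which was also highest for Fos, was the highest Egr1 library. Without it the log2 fold change of Egr1 in the combination treatment compared to control was -0.48, and without DAC+SFN replicate 3 it was 0.67, so its direction rested on single libraries.

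**Figure D4:**
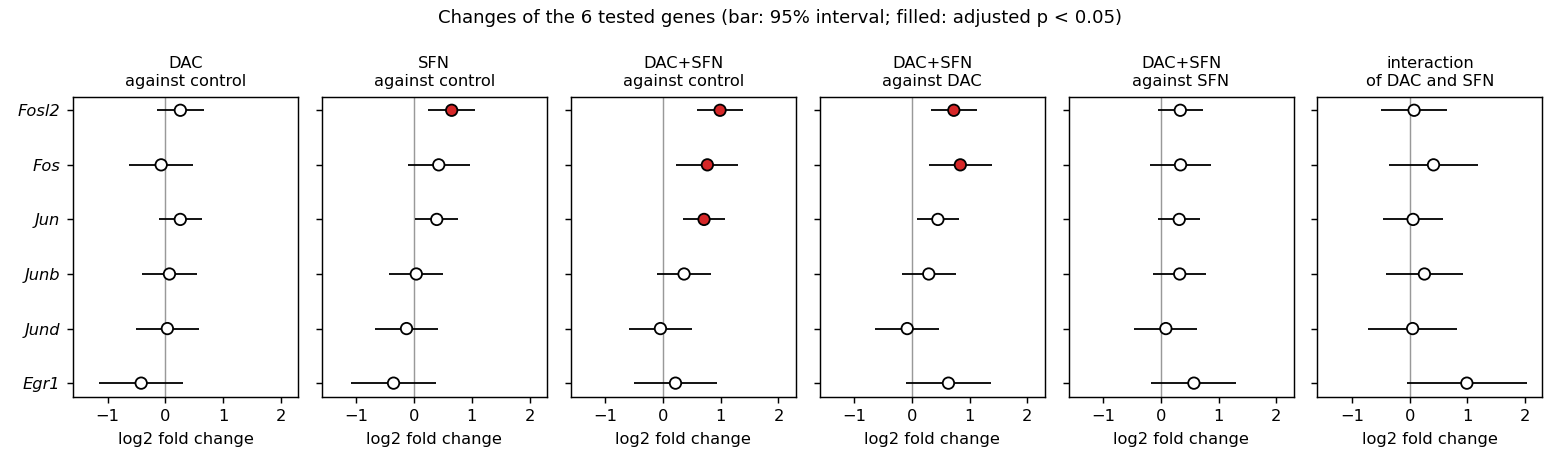
Log2 fold changes (x axis) of the 6 tested genes in 6 comparisons (panels), with 95% intervals as bars and filled points for an adjusted p-value under 0.05. Filled points are Fosl2 with SFN, Fosl2, Fos and Jun with DAC+SFN compared to control, and Fosl2 and Fos compared to DAC.

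Read over all 6 tested genes, the calls of the main fit lay in the comparisons that added SFN. With DAC compared to control, none of the 6 genes was called in the main edgeR fit or by DESeq2. None had an unadjusted p-value under 0.05 in the main fit, where 0.180% of all tested genes were called. Jun and Egr1 were called when only control and DAC libraries were fitted. With SFN compared to control, 1 of 6 rose and none fell, where 13.9% of all genes were called and 8.27% were called higher. With the combination treatment compared to control, 3 of 6 rose and none fell, where 31.6% of all genes were called and 17.0% were called higher. All 3 DAC+SFN libraries lay above all 3 control libraries for 1 of the 6, Fosl2, as for 15.1% of all genes. Compared to DAC, 2 of 6 rose with the combination treatment, where 16.1% of all genes were called and 9.55% were called higher, and all 3 libraries lay above all 3 for Fosl2 alone, as for 9.19% of all genes. Compared to SFN, none of the 6 was called in the main edgeR fit or by DESeq2. None had an unadjusted p-value under 0.05 in the main fit, where 1.61% of all genes were called. Fosl2 and Jun were called when only SFN and DAC+SFN libraries were fitted. For the interaction, none of the 6 was called by either tool, none had an unadjusted p-value under 0.05, and 0% of all genes were called. None of the calls passed a fold change of 2. The median log2 fold change of the 6 genes was 0.54 with the combination treatment compared to control, 0.21 with SFN and 0.05 with DAC, beside medians over all tested genes of 0.01, 0.00 and 0.00. In the combination treatment it was 0.54 compared to DAC and 0.33 compared to SFN, beside 0.00 and 0.00 over all tested genes. These comparisons share their control or treated libraries. Without the replicate block, 0 of the 6 genes were called with SFN, 1 (Fosl2) with the combination treatment compared to control and 0 compared to DAC. DAC+SFN replicate 3 bore on the genes that were not called. Without it, 5 of 6 were called compared to DAC (Fos, Fosl2, Jun, Junb and Egr1) and 3 of 6 compared to SFN (Jun, Junb and Egr1). The share of all tested genes called without this library is not given here, so these counts have no background to be read against.

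The repeat number moved 3 of the 6 genes. Egr1 (adjusted p = 0.00507), Jun (adjusted p = 0.0123) and Fos (adjusted p = 0.0143) differed between the numbers, as did 33.9% of all tested genes, while Junb (0.0515), Jund (0.0558) and Fosl2 (0.0734) missed the threshold. Over the 4 groups, Egr1 was at 19.2, 7.36 and 20.4 CPM in replicates 1, 2 and 3, and Fos at 19.1, 12.5 and 23.2 CPM. Jun took another order, at 44.2, 69.1 and 54.2 CPM. Egr1 and Fos were thus lowest in replicate 2, where Jun was highest. Library numbers in the labels follow the repeat number, so a library batch and the repeat cannot be told apart.

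Likeness of pattern over the 12 libraries was described by Pearson's r of log2 CPM after the mean of each replicate number was removed. The highest r was between Fosl2 and Jun (0.89), then between Jun and Junb (0.86), Junb and Jund (0.81), Fos and Jun (0.80) and Fos and Egr1 (0.73). The lowest was between Fos and Jund (0.18). Of all tested genes, those nearest to Fosl2 were Capg (r = 0.995), Lamb1 (0.993) and Pvr (0.991), and those nearest to Jun were Per1, Rhob and Ddr1 (0.98 for each). Those nearest to Fos were Chd7 (0.96), Frmd4a (0.94) and Tep1 (0.92), and to Egr1 Mkl2, Unkl and Itgb3 (0.88 for each). Nthl1 (0.98), Pex6 (0.96) and Tysnd1 (0.95) were nearest to Junb, and Scand1 (0.98), Mypop (0.97) and Zfp771 (0.97) to Jund. The 12 libraries share their treatments and their sequencing, and these are the highest values among 11638 genes.

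**Figure D5:**
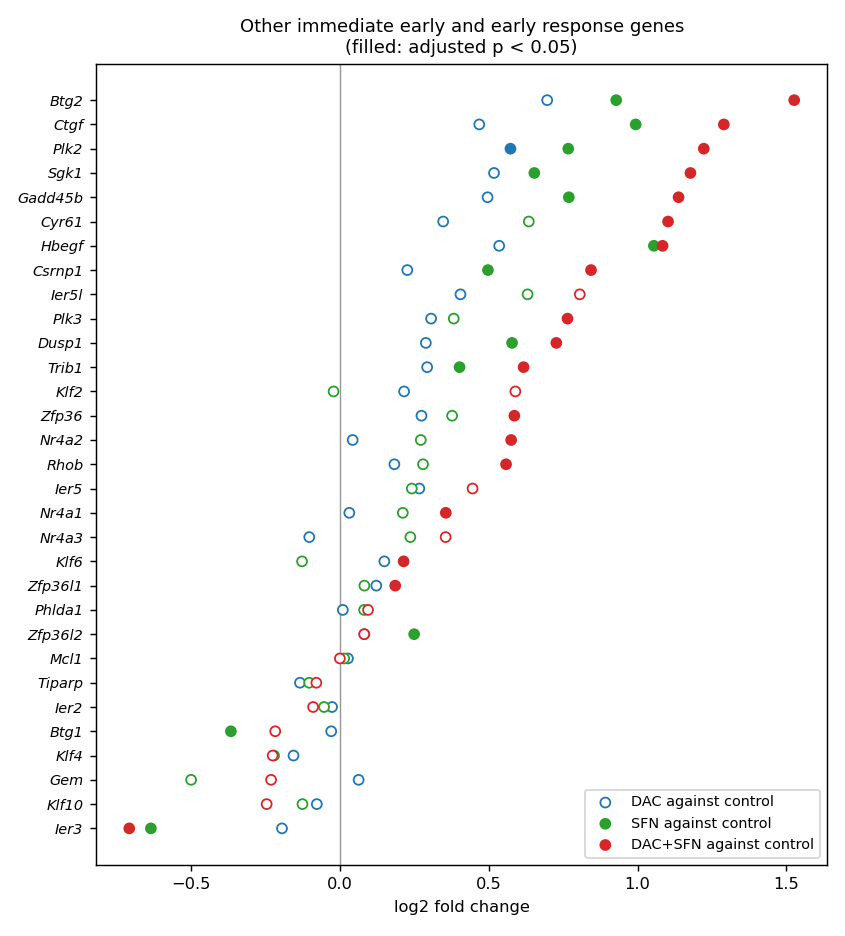
Log2 fold changes (x axis) of 31 other early response genes (y axis, ordered by the change with DAC+SFN) compared to control with DAC (blue), SFN (green) and DAC+SFN (red), where filled points have an adjusted p-value under 0.05. With DAC+SFN 17 are filled to the right of 0 and 1, Ier3, to the left.

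Other immediate early and early response genes were read beside the 8 factors. Of 32 genes in a list of such genes, 31 were tested. With the combination treatment compared to control, 17 rose, 1 fell and 13 were not called, with a median log2 fold change of 0.56 beside 0.01 over all tested genes, where 17.0% of all genes were called higher and 31.6% called in all. Plk2, a polo-like kinase, rose from 28.8 ± 4.95 to 67.1 ± 12.5 CPM (log2 fold change 1.22, SE 0.08, adjusted p = 3.75e-07). Btg2, an antiproliferative p53 target, rose from 16.3 ± 5.17 to 45.6 ± 3.88 CPM (log2 fold change 1.53, SE 0.15, adjusted p = 7.23e-06). Sgk1 (log2 fold change 1.18), a serum-regulated kinase, Ctgf (1.29), a matricellular protein, and Hbegf (1.08), an EGF receptor ligand, rose as well. Ier3 was the single gene of the list that fell, from 54.1 ± 15.3 to 32.3 ± 6.68 CPM, and it was chosen after its values were seen. The whole list was chosen with earlier results of these data known, so its share of calls is not that of an independent list. With SFN, 10 rose and 2 fell, where 13.9% of all genes were called. Plk2 (0.77), Hbegf (1.05), Btg2 (0.93), Ctgf (0.99) and Sgk1 (0.65) had the smallest adjusted p-values there. With DAC only Plk2 was called (log2 fold change 0.57, adjusted p = 0.0121), where 0.180% of all genes were called. When only control and DAC libraries were fitted, 9 of the list were called. That fit has its own share of all genes called, which is not given here. The combination treatment had 12 genes higher and 0 lower compared to DAC, where 16.1% of all genes were called, and 3 higher (Plk2, Klf6 and Btg2) and 0 lower compared to SFN, where 1.61% were called. Counts of this list depended on the fit, and the share of all genes called in each fit is not given here. With 1 library left out, 14 to 23 of the 31 were called with the combination treatment over control, the fewest without DAC+SFN replicate 1. For SFN it was 4 to 12, with 7 without control replicate 1, 6 without control replicate 2, 4 without SFN replicate 2 and 5 without SFN replicate 3. Over DAC it was 5 to 17, with 6 without DAC replicate 1 or DAC+SFN replicate 2 and 5 without DAC replicate 2 or DAC+SFN replicate 1. Over SFN it was 0 without SFN replicate 1 or 3 or DAC+SFN replicate 1, and 8 without DAC+SFN replicate 3. The call of Plk2 with DAC was lost without control replicate 1 or 2 or DAC replicate 2. Without the replicate block, 5, 0, 0 and 0 were called with the combination treatment over control, with SFN, over DAC and over SFN.

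Of 12 other AP-1 dimer partners and small MAF genes, 9 were tested, and 3 rose and 2 fell with the combination treatment compared to control, where 31.6% of all genes were called and 17.0% called higher. Jdp2, a partner of JUN that represses AP-1 sites, fell from 41.6 ± 4.77 to 28.6 ± 5.02 CPM (log2 fold change -0.55, SE 0.07, adjusted p = 9.75e-05), and it also fell with SFN (-0.50) and in the combination treatment compared to DAC (-0.50). Its fall had the same direction in all 3 replicates of each of these comparisons. Atf3, a stress-induced partner of JUN, rose with the combination treatment from 11.5 ± 3.81 to 18.3 ± 2.57 CPM (log2 fold change 0.70, SE 0.12, adjusted p = 0.000697). Atf3 also rose compared to SFN (0.74, adjusted p = 0.0223), while with SFN single treatment it was at 11.1 ± 3.28 CPM. Maff (0.78) and Mafk (0.49), small MAF proteins that lack an activation domain, rose with the combination treatment, Mafk also with SFN (0.36), and Atf2 fell (-0.21). With 1 library left out, 3 to 7 of the 9 were called with the combination treatment over control, 3 without control or DAC+SFN replicate 1 or 2, and without the block 1, Jdp2, was called. Jdp2 was called in each fit with 1 library left out in all 3 comparisons, and without the block its calls with SFN (adjusted p = 0.158) and over DAC (adjusted p = 0.142) were lost. The rise of Atf3 over SFN was lost without SFN replicate 1 or 3 or DAC+SFN replicate 1 and without the block (adjusted p = 0.522), and the rise of Mafk with SFN was lost without the block (adjusted p = 0.409). Among 5 other EGR and NAB genes, 2 were tested. Nab1, a corepressor of EGR factors, fell with SFN (log2 fold change -0.24, adjusted p = 0.0411) and with both treatments (-0.25, adjusted p = 0.0186), and neither call held without the block or without replicate 1 or 2 of control or of the treated group.

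A list of kinases and promoter factors upstream of the early genes was read as well. Its median log2 fold change with the combination treatment over control was 0.05, beside 0.01 over all tested genes. Of 18 in the list, 17 were tested. With the combination treatment over control, where 31.6% of all genes were called and 17.0% called higher, 5 rose and 1 fell. Those with the smallest adjusted p-values were Map2k4 (log2 fold change 0.21) and Mapk9 (0.22), which belong to the JNK route, Creb1 (-0.31), the cAMP response factor, Elk3 (0.29), a ternary complex factor, and Fbxw7 (0.24), a ubiquitin ligase subunit that recognises JUN. Elk3 (0.29) rose and Creb1 (-0.26) fell with SFN, where 13.9% of all genes were called. Mapk9 and Fbxw7 rose (both 0.23) in the combination treatment compared to DAC, where 16.1% of all genes were called. Without the block, 0 of the 17 were called in any of these comparisons. Without control replicate 2, 3 were called with the combination treatment over control. The calls with SFN were lost without replicate 1 or 2 of control or of SFN, and those over DAC fell to 0 without DAC replicate 1 or DAC+SFN replicate 3 and to 1 without DAC replicate 2 or DAC+SFN replicate 1 or 2.

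Genes known as targets of these factors were read in the same way. Of 19 AP-1 target genes, 10 were tested, and the same 4 rose with SFN and with the combination treatment, over control and over DAC alike, while none fell, where 13.9% of all genes were called with SFN, 31.6% with the combination treatment over control and 16.1% over DAC. Ccnd1, cyclin D1, rose from 319 ± 116 to 974 ± 363 CPM with the combination treatment (log2 fold change 1.61, SE 0.10, adjusted p = 2.55e-07), with SFN to 790 ± 368 CPM (1.27) and with DAC to 494 ± 231 CPM (0.60, adjusted p = 0.0344). Spp1, osteopontin, had a log2 fold change of 0.89 with the combination treatment, and Plaur, the urokinase receptor, of 0.81. Of 12 EGR1 target genes, 10 were tested, and 6 rose and 1 fell with the combination treatment compared to control, where 31.6% of all genes were called and 17.0% called higher. Egr1 itself was not called. Pdgfa rose from 8.35 ± 1.81 to 21.7 ± 8.88 CPM (log2 fold change 1.35, SE 0.14, adjusted p = 1.40e-05), and Sphk1, a sphingosine kinase, from 8.11 ± 1.96 to 23.1 ± 9.33 CPM (1.49, SE 0.22, adjusted p = 0.000200). Thbs1 (0.98), a matricellular inhibitor of angiogenesis, and F3 (0.61), tissue factor, rose, and Hpse, heparanase, fell from 41.3 ± 21.8 to 25.0 ± 12.2 CPM (-0.70). With SFN, 4 of the 10 rose (Pdgfa, F3, Sphk1 and Thbs1) and Hpse fell, where 13.9% of all genes were called, and the same 5 were called in the combination treatment compared to DAC, where 16.1% were. Without the block, 1 AP-1 target and 2 EGR1 targets were called with the combination treatment compared to control, and none with SFN or compared to DAC. With 1 library left out, 4 or 5 AP-1 targets were called with the combination treatment over control. With SFN it was 2 without control replicate 2. Over DAC it was 2 or 3, so no such fit kept all 4, and it was 2 without DAC replicate 2 or DAC+SFN replicate 1 or 2. The rise of Ccnd1 with DAC was lost without control replicate 1 or 2 or DAC replicate 2 or 3. All of these genes have other regulators, and the part of AP-1 or EGR1 in their changes was not tested.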

How the data were processed

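B16F10 RNA was sequenced in 12 libraries, 3 for each of control, DAC, SFN and DAC+SFN, grouped by their titles. According to the submitters' processing notes, the authors used Trimmomatic 0.38 for trimming, TopHat2 2.1.1 for alignment to mm10 and HTSeq for counting, and deposited raw counts per gene symbol without normalization. The gene annotation and strand setting of the counting are not given in the sources used here, while the library kit keeps strand. Total counts were 15880957 to 27291436 per library.

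Counts were tested with edgeR 4.0.16 (R 4.3.3) after TMM scaling, in 1 model of all 12 libraries that held the replicate number as a block in place of the batch term that the study's methods name. Genes needed 1 CPM in at least 3 libraries. P-values were two-sided and adjusted by Benjamini-Hochberg over 11638 genes. The SE is the log2 fold change over the root of F, intervals use the fit's 14.7 degrees of freedom, edgeR's prior count was 0.125, and single-library log2 values had a prior count of 2. The replicate numbers pair the samples: after group means were removed, same-numbered samples correlated at 0.270 to 0.732 over 18 pairs (mean 0.544). The repeats are independent according to the design text, and p-values cover only the spread between them.

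TPM used exon unions of GENCODE M21 (mm10), with a length found for 98.6% of symbols. GC content came from the same release and was found for 99.7% of the tested genes. Promoters came from RefSeq. Levels and shares were not tested. The members and gene lists were chosen with earlier results of these data known. Named genes were all 8 members, the 3 genes most like each tested member, and at most 5 called genes with the smallest adjusted p-values per list and comparison. Alternatives were DESeq2 1.42.0 (size factors, Wald test), edgeR's version 4 fit, no filter, at least 10 counts in every sample, no block, only the groups compared, each library left out and, chosen after seeing the data, a GC offset. The main edgeR fit was run on simulated data, and the outcome is not given here. Values of a few listed genes were left out of the text.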

Additional observations from a re-analysis of the deposited data

How the results depend on the processing

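Without the replicate block, 0 of the 6 tested AP-1 and Egr1 genes were called with SFN, 1 with the combination treatment compared to control and 0 compared to DAC. The log2 fold changes of the lost calls without the block were 0.69 for Fosl2 with SFN, 0.72 for both Jun and Fos with the combination treatment compared to control, and 0.81 for Fos and 0.76 for Fosl2 compared to DAC, beside 0.65, 0.71, 0.77, 0.84 and 0.73 with it. DESeq2's test called 0 with SFN and 1 in the combination treatment compared to DAC. Without a filter on low counts, 2 were called with SFN and 6 for the replicate number, and the GC correction gave 5 for the replicate number. With only the libraries of the groups compared, 2 were called with DAC, 3 with SFN, 1 in the combination treatment compared to DAC and 2 compared to SFN. With each library left out, the count was 0 to 1 with SFN, 1 to 4 with the combination treatment compared to control, 0 to 5 compared to DAC, 0 to 3 compared to SFN and 2 to 6 for the replicate number. It was 0 with DAC and for the interaction. The share of all tested genes called in each of these fits is not given here. A change in these counts can therefore follow a change in calling over all genes.

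Log2 fold changes that changed sign were those of genes that were not called in the same comparison in the main fit. Under the GC correction these were Junb (-0.014) and Jund (-0.080) with DAC and Junb (-0.034) with SFN. With each library left out, values with DAC ran from -0.18 to 0.14 for Fos, -0.016 to 0.48 for Fosl2, -0.25 to 0.24 for Junb and -0.41 to 0.28 for Jund, and with SFN from -0.14 to 0.19 for Junb, -0.30 to 0.072 for Jund and -0.72 to 0.032 for Egr1. With the combination treatment they ran from -0.34 to 0.32 for Jund and -0.48 to 0.67 for Egr1 compared to control, from -0.37 to 0.32 and -0.059 to 1.10 compared to DAC, and from -0.22 to 0.43 and -0.076 to 1.04 compared to SFN, where Fos ran from -0.18 to 0.63. The interaction ran from -0.10 to 0.71 for Fos, -0.14 to 0.36 for Fosl2, -0.13 to 0.32 for Jun, -0.033 to 0.61 for Junb and -0.25 to 0.48 for Jund. The causes were not tested. At 9 to 24 counts for Fosb and 0 to 9 for Fosl1, depth limits what can be seen of these genes.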
